A study of Homo sapiens with 3 samples.

Results

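The levels of 10 keratin genes are described here, of 48162 genes in the files: the simple-epithelial KRT7, KRT8, KRT18 and KRT19, the type II keratin KRT80, the hair-type keratins KRT81 and KRT86, and the basal or stress keratins KRT5, KRT14 and KRT17. They were listed by name, with earlier results of these data known, and all 10 were matched by Ensembl ID to GENCODE 29. RNA was sequenced from cultured MDA-MB-231 cells, an established human line from a triple-negative breast tumour that is known for its mesenchymal character. The groups were a FoxO3 depletion (the library titled sF_3), a co-depletion of Geminin and FoxO3 (sG_sF_3) and a control (Co), with 1 library each. FoxO3 is a forkhead transcription factor, and Geminin is the inhibitor of the licensing factor CDT1. Per the labels, all cultures were exposed to lentivirus for 24 h and collected 72 h after the change of medium, so the control was infected too; the sources used here give neither the depleting sequences nor the control vector, nor what the 3 in the titles means.

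Keratins are the intermediate filament proteins of epithelial cells. Type I and type II keratins join into obligate heterodimers, which assemble into filaments anchored at desmosomes and hemidesmosomes, and which pair is made depends on the kind of epithelium. KRT8 and KRT18 form the first pair of simple epithelia, including the luminal cells of the breast, where KRT7 and KRT19 are also made, while KRT5 and KRT14 form the pair of basal cells.

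With 1 library per group every difference is one between libraries, and no p-value was computed. Values are FPKM, in which reads are divided by transcript length and by the size of the library. Intervals are 95% counting intervals from whole reads recovered from the FPKM, behind which lie inferred totals of 10760613 reads for the FoxO3 depletion, 12267332 for the co-depletion and 14507410 for the control. They say nothing of variation between cultures. FOXO3 stood at 2.79 FPKM after FoxO3 depletion and 2.94 after co-depletion, against 12.2 in the control, and GMNN at 112.2, 37.0 and 112.3 FPKM in the same order of libraries. In bulk libraries, fewer cells with a keratin and less of its RNA per cell cannot be told apart.

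The line had the simple keratins listed in all 3 libraries, with KRT5, KRT14 and KRT17 at a few reads or, for KRT5 in the co-depletion, at 0. KRT7, KRT8, KRT18, KRT19, KRT80, KRT81 and KRT86 were above 1 FPKM in every library, and KRT5, KRT14 and KRT17 below it in every library. VIM, the vimentin of mesenchymal cells, lay between 574.3 and 607.3 FPKM. Of the other epithelial markers, EPCAM was at 9.8 FPKM in the FoxO3 depletion, 8.95 in the co-depletion and 13.7 in the control, the E-cadherin gene CDH1 at 1.02, 0.58 and 0.42, and the oestrogen receptor gene ESR1 at 0.12, 0.08 and 0.04. TP63, a basal transcription factor, was at 0.69, 0.61 and 0.76 FPKM. The luminal keratins and vimentin were thus both high, while CDH1 and ESR1, which are also luminal markers, were at 1.02 FPKM or less. Of the 2 analysed luminal markers that are not keratins, EPCAM and GATA3, 0 were called at 1.5-fold, and of 3 analysed mesenchymal markers 1, ZEB1, was called lower and 0 higher in each depleted library. Of all analysed genes 4% were called higher and 16.7% lower after FoxO3 depletion, and 4.02% and 12.3% after co-depletion. CDH2, the N-cadherin gene and a mesenchymal marker below the minimum mean, was at 0.74 FPKM after FoxO3 depletion and 1.14 after co-depletion, against 0.38 in the control, with ratios to the control of 1.96 (0.85 to 4.67) and 3.01 (1.45 to 6.70). CDH1, also below that mean, had ratios of 2.45 (1.12 to 5.66) and 1.40 (0.58 to 3.45). Those of EPCAM were 0.71 (0.57 to 0.89) and 0.65 (0.52 to 0.81), with both intervals below 1.

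**Figure D1:**
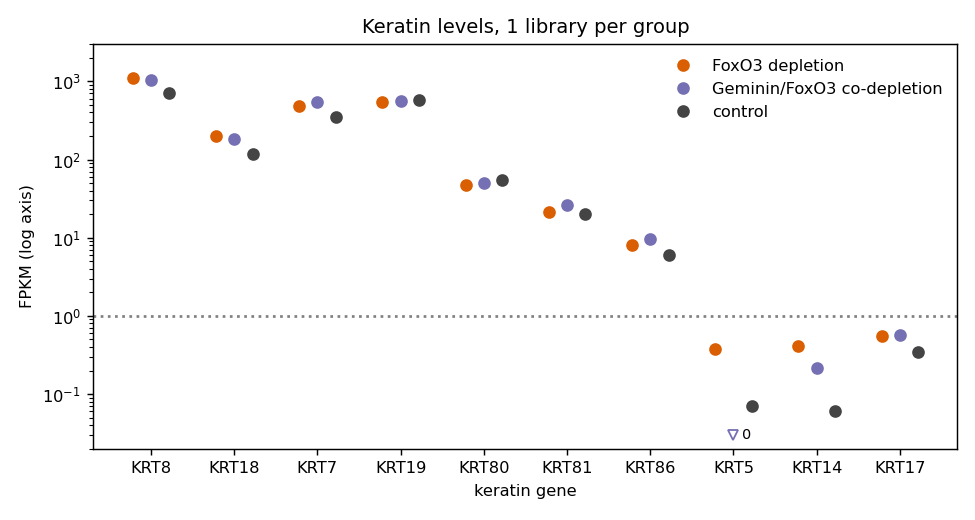
FPKM (log axis) of the 10 keratins, with 1 point per library: FoxO3 depletion, Geminin/FoxO3 co-depletion and control from left to right within each gene. The dotted line marks 1 FPKM and the open triangle a value of 0. KRT8 is the highest in each library, and KRT5, KRT14 and KRT17 lie under 1 FPKM in each.

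KRT8 (ENSG00000170421), the type II member of the simple pair, was the highest keratin. It stood at 1105 FPKM after FoxO3 depletion and 1041 after co-depletion, against 705.0 in the control, both depleted libraries above the control. By level it ranked 50 of 12649 analysed genes after FoxO3 depletion and 55 after co-depletion, against 96 in the control. The FPKM ratio to the control was 1.57 (1.53 to 1.61) in the FoxO3 depletion and 1.48 (1.44 to 1.51) in the co-depletion.

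KRT18 (ENSG00000111057), its type I partner, was at 202.1 FPKM after FoxO3 depletion and 182.0 after co-depletion, against 117.9 in the control. The ratio to the control was 1.71 (1.62 to 1.81) in the FoxO3 depletion and 1.54 (1.46 to 1.63) in the co-depletion. Both members of the pair were thus higher in each depleted library, with intervals above 1. The quotient of KRT8 over KRT18 FPKM was 5.47 after FoxO3 depletion and 5.72 after co-depletion, against 5.98 in the control. It was 0.91 times the control's in the FoxO3 depletion (0.86 to 0.97), and 0.96 times in the co-depletion (0.90 to 1.02). KRT18 was therefore higher by somewhat more than KRT8 after FoxO3 depletion, and after co-depletion the interval of the difference includes no difference.

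KRT7 (ENSG00000135480), a type II keratin of ducts and glands, was at 476.4 FPKM after FoxO3 depletion and 547.7 after co-depletion, against 351.3 in the control. Its ratio to the control was 1.36 (1.20 to 1.53) in the FoxO3 depletion and 1.56 (1.39 to 1.75) in the co-depletion. Unlike KRT8 and KRT18, it was highest in the co-depletion.

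KRT19 (ENSG00000171345), a small type I keratin that lacks a tail domain, had nearly the same FPKM in the 3 libraries. It was at 544.5 FPKM after FoxO3 depletion and 565.6 after co-depletion, against 571.2 in the control. The ratio to the control was 0.95 (0.89 to 1.02) in the FoxO3 depletion and 0.99 (0.93 to 1.06) in the co-depletion, so both intervals include 1. These intervals rest on the smallest whole reads possible. With 3 times as many reads, the multiple that the implied length gives, they were 0.92 to 0.99 and 0.95 to 1.03, and the first no longer includes 1. KRT19 moved to the other side of 1 in both when libraries were rescaled by the median ratio of analysed genes. KRT80 (ENSG00000167767), a type II keratin known from many epithelia, was the only member whose 95% interval lay below 1 in both depleted libraries, at 47.0 FPKM after FoxO3 depletion and 50.7 after co-depletion, against 55.2 in the control (ratios 0.85, 0.80 to 0.90, and 0.92, 0.87 to 0.97). The same rescaling moved its log2 ratio from -0.23 to -0.15 in the FoxO3 depletion and from -0.12 to -0.06 in the co-depletion. Its intervals were not recomputed on that scale.

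The simple keratins therefore differed among themselves by more than counting error. The quotient of KRT8 over KRT19 was 2.03 after FoxO3 depletion and 1.84 after co-depletion, against 1.23 in the control, which is 1.64 times (1.53 to 1.77) and 1.49 times (1.39 to 1.60) the control's. KRT7 over KRT19 was 1.42 times the control's in the FoxO3 depletion (1.24 to 1.63) and 1.57 times in the co-depletion (1.38 to 1.79). These pairs were chosen after their values were seen, and the intervals are for counting alone.

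**Figure D2:**
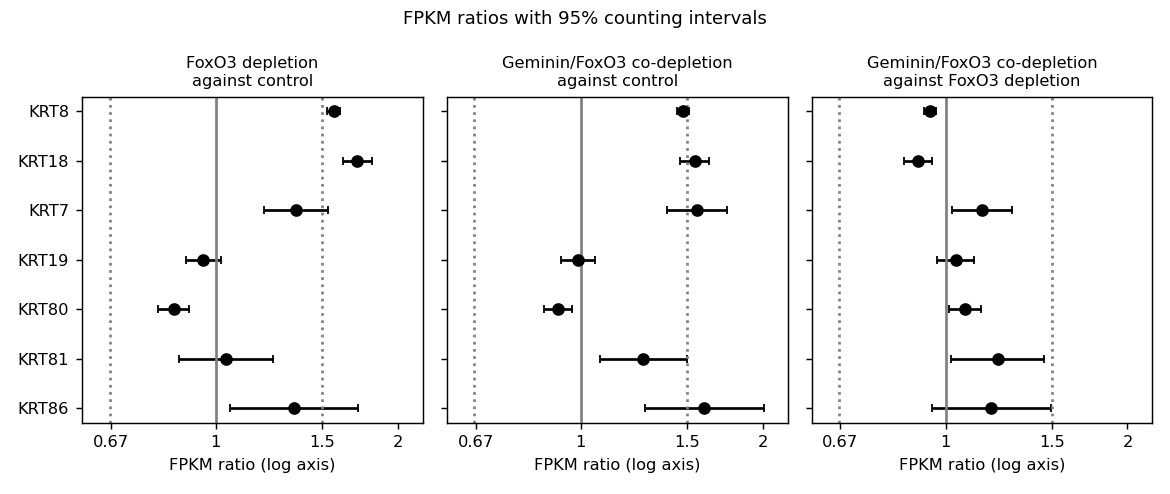
FPKM ratio (log axis) of the 7 keratins above 1 FPKM in 3 comparisons, each the first library over the second, with 95% counting intervals as bars. Dotted lines mark 1.5-fold either way. KRT8 and KRT18 lie to the right of 1 against the control and to the left of it in the co-depletion against the FoxO3 depletion.

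KRT81 (ENSG00000205426) and KRT86 (ENSG00000170442) are type II keratins of the hair cortex. KRT81 was at 21.2 FPKM after FoxO3 depletion and 25.9 after co-depletion, against 20.4 in the control, with ratios to the control of 1.04 (0.87 to 1.25) and 1.27 (1.08 to 1.5). KRT86 was at 8.0 FPKM after FoxO3 depletion and 9.51 after co-depletion, against 5.93 in the control, with ratios of 1.35 (1.06 to 1.72) and 1.60 (1.28 to 2.01). Both were highest in the co-depletion, although for KRT86 the interval of its ratio to the FoxO3 depletion included 1 (1.19, 0.95 to 1.49). After GC adjustment KRT81 lay on the other side of 1 in the FoxO3 depletion (log2 ratio -0.01). Their separate values are uncertain, because the genes are near copies: 38.4% of the stretches of 50 bases in the principal KRT81 transcript occur unchanged in KRT86 transcripts, and KRT81 lies within the span of KRT86 on the other strand. The search covered both strands. Sharing at this length was also seen for KRT8, with 36.8% of such stretches found in other genes, and KRT18, with 47.6%. For KRT18, 21.5% were found in KRT8 transcripts, but exons of these genes overlap on opposite strands by 525 bases. That part can thus be the same place read on the other strand and not a copy. At 100 bases the shared part was 7.75% for KRT8, 16.6% for KRT18, 30.3% for KRT81 and 26.6% for KRT86, and that of KRT18 was shared with KRT8 alone.

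The basal keratins KRT5 (ENSG00000186081), KRT14 (ENSG00000186847) and KRT17 (ENSG00000128422) rested on a few reads. KRT5 was at 0.38 FPKM after FoxO3 depletion (4 reads) and at 0 after co-depletion, where 0 reads allow up to 0.25 FPKM (3 reads), against 0.07 in the control (1 read). KRT14 was at 0.41 FPKM after FoxO3 depletion (5 reads) and 0.21 after co-depletion (3 reads), against 0.06 in the control (1 read). KRT17, a keratin induced in wounded and stressed epithelium, was at 0.56 FPKM after FoxO3 depletion and 0.57 after co-depletion, against 0.35 in the control. At this depth no difference in these genes was detectable: the interval of the FPKM ratio to the control ran from 0.53 to 265.6 for KRT5 and from 0.75 to 318.8 for KRT14 in the FoxO3 depletion, and from 0.41 to 6.7 for KRT17. The intervals of all 3 included 1 in the co-depletion as well.

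A gene was called higher or lower at 1.5-fold on the scale of FPKM + 1, among the 12649 named genes with a mean of at least 1 FPKM. Of the 10 keratins, 7 reached that mean, each of them with at least 1 FPKM in all libraries. In the FoxO3 depletion against the control, KRT8 and KRT18 were called higher, 2 of 7, and 0 lower, while 4% of all analysed genes were called higher and 16.7% lower. The median log2 ratio of the 7 keratins was 0.38, against -0.07 for all analysed genes. The log2 ratio of KRT18, 0.77, exceeded that of 98.2% of analysed genes, that of KRT8, 0.65, 97.0%, and that of KRT7, 0.44, 91.7%.

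In the co-depletion against the control, KRT7, KRT18 and KRT86 were called higher, 3 of 7, and 0 lower, while 4.02% of all analysed genes were called higher and 12.3% lower. The median log2 ratio of the 7 was 0.56, against -0.06 for all analysed genes. Several members lay close to the 1.5-fold line. The fold on the FPKM + 1 scale was 1.56 for KRT7, 1.54 for KRT18 and 1.52 for KRT86, just inside, and 1.48 for KRT8, just outside. This comparison and the FoxO3 depletion share the control library.

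In the co-depletion against the FoxO3 depletion, 0 of 7 keratins were called in either direction, while 1.35% of all analysed genes were called higher and 0.617% lower. KRT18 and KRT8 had ratios of 0.90 (0.85 to 0.95) and 0.94 (0.92 to 0.96), and KRT7 and KRT81 of 1.15 (1.03 to 1.29) and 1.22 (1.02 to 1.46). The KRT8 and KRT18 pair thus lay slightly lower in the co-depletion and KRT7 and KRT81 slightly higher, all within 1.5-fold.

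In these libraries ratios moved with the GC content of transcripts, and the 7 keratins are GC-rich, at 57.3% to 62.8% against a median of 49.7% for analysed genes. The median log2 ratio of the FoxO3 depletion against the control was -0.64 in the poorest of 10 equal groups of genes by GC and between 0.04 and 0.07 in the 3 richest, which hold the 7 keratins. In the co-depletion against the control it was -0.48 in the poorest group, 0.02 just above the median GC, and between 0.08 and 0.10 in the 3 richest. After subtraction of the median of each GC bin, the log2 ratio of KRT18 in the FoxO3 depletion was 0.71 and that of KRT8 0.59, and both kept their calls, KRT8 just past the line. Of all analysed genes 5.83% were then higher and 9.37% lower. In the co-depletion the same step moved KRT18 to 0.56, KRT7 to 0.56 and KRT86 to 0.49, and 0 of 7 were then called, with 4.62% of all analysed genes higher and 6.21% lower. In the co-depletion against the FoxO3 depletion, 0 keratins were called after this step too, with 1.06% of genes higher and 0.767% lower.

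**Figure D3:**
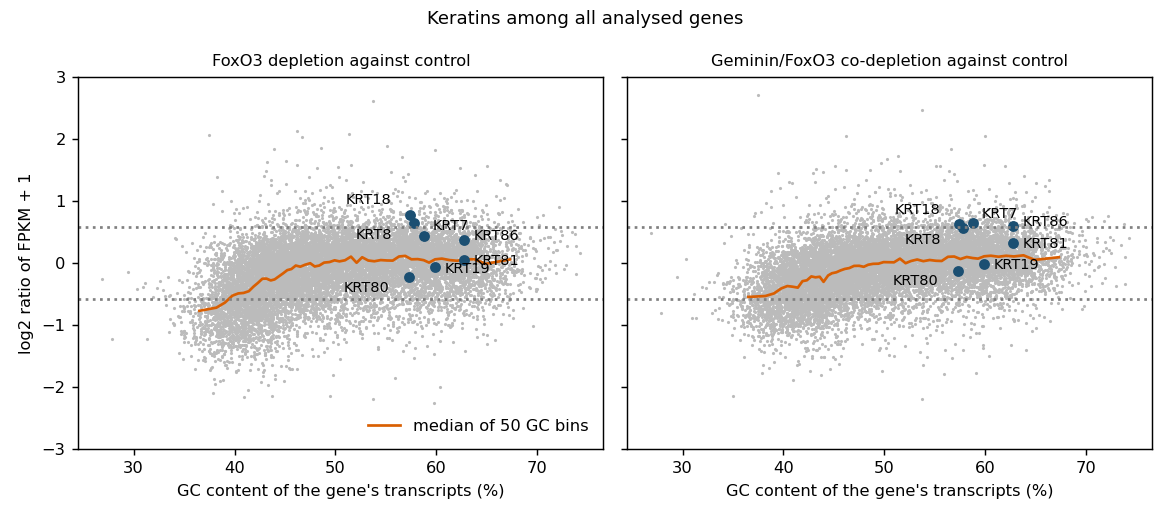
Log2 ratio of FPKM + 1 against the GC content of transcripts (%) for the 12649 analysed genes (grey), with the 7 keratins in blue and the median of 50 GC bins as a line. Dotted lines mark 1.5-fold. The line climbs steeply up to about the median GC content and, in the co-depletion, slightly further, and KRT8 and KRT18 are above it in both panels.

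The keratin pool was larger in the depleted libraries and its make-up differed. The 10 keratins summed to 2405 FPKM after FoxO3 depletion and 2423 after co-depletion, against 1827 in the control. KRT8 took 45.9% of this sum after FoxO3 depletion and 43.0% after co-depletion, against 38.6% in the control, and KRT19 22.6% and 23.3%, against 31.3%. Type II keratins outweighed type I in every library, with a quotient of summed FPKM of 2.22 after FoxO3 depletion and 2.24 after co-depletion, against 1.65 in the control. VIM was at 607.3 FPKM after FoxO3 depletion and 574.3 after co-depletion, against 593.2 in the control, so that it stood at 0.25, 0.24 and 0.32 times the keratin sum.

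**Figure D4:**
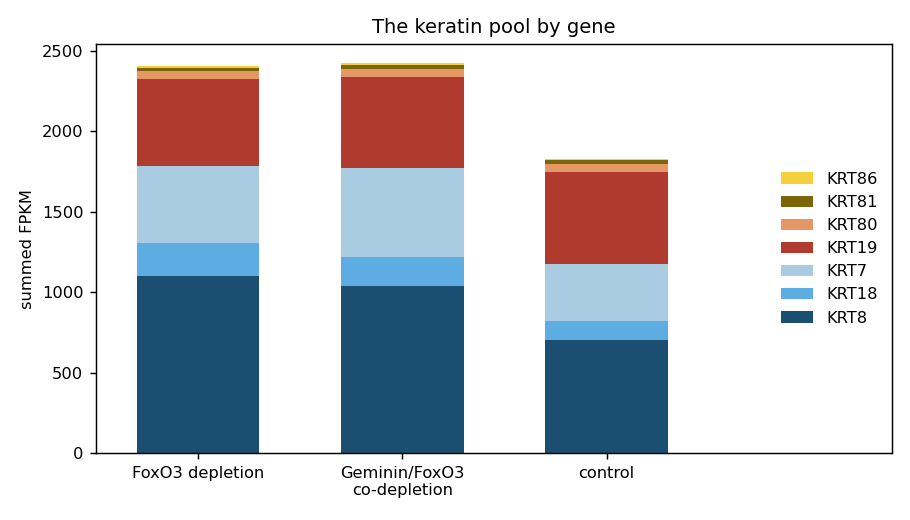
Summed FPKM of the keratins by gene in each library, FoxO3 depletion and Geminin/FoxO3 co-depletion left of the control. The stacks reach 2405, 2423 and 1827 FPKM, with KRT8 the largest share and KRT19 nearly equal in height in the 3 libraries. KRT5, KRT14 and KRT17 are too low to be drawn.

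Levels of different keratins depend on the length the authors divided by. For several keratins the length implied by the recovered reads was short: 618 bases for KRT7 and 745 for KRT19, against 1754 and 1390 in their principal coding transcripts. For KRT7, KRT19 and KRT81 it was set to the multiple nearest the mean annotated transcript length. Rescaled to the principal transcript, levels in the control were 376.7 for KRT8, 306.2 for KRT19, 123.8 for KRT7 and 96.1 for KRT18, in the same order as in FPKM. After FoxO3 depletion KRT7 and KRT18 were then nearly equal, at 167.8 and 164.7, so their distance in FPKM depends on the length. The quotient of type II over type I sums became 1.82 after FoxO3 depletion and 1.84 after co-depletion, against 1.44 in the control. At these lengths type II keratins summed to 830.5, 830.6 and 578.3 in the same order of libraries, and type I to 457.2, 452.0 and 402.5. These sums are lower than in FPKM, so the absolute sums and the VIM quotient above hold for the deposited FPKM only. Both type sums were still higher in each depleted library than in the control. KRT8 was then at 590.3 after FoxO3 depletion and 556.2 after co-depletion, against 376.7 in the control. KRT19 was at 291.8 and 303.1, against 306.2. In FPKM, the order within every library was KRT8, KRT19, KRT7, KRT18, KRT80, KRT81 and KRT86, and the only neighbours among these 7 that did not differ beyond counting error were KRT19 and KRT7 in the co-depletion (quotient 1.03, 0.95 to 1.13). FPKM ratios between libraries do not depend on the length, but folds on the FPKM + 1 scale do. At principal lengths KRT86 had a fold of 1.49 in the co-depletion against the control and lost its call, leaving 2 of 7, and the 2 calls in the FoxO3 depletion were kept.

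KRT8 and KRT18 are neighbours on chromosome 12 on opposite strands, and in GENCODE 29 some upstream KRT8 exons overlap exons of KRT18 on the other strand, by 525 bases or 16.3% of the exon bases of KRT18. The sources used here do not say whether counting used strand, so reads there cannot be assigned with certainty. KRT7 likewise shares 282 exon bases with KRT7-AS on the other strand, which was at 1.54 FPKM after FoxO3 depletion and 2.31 after co-depletion, against 1.22 in the control. KRT8 and KRT18 have many processed pseudogenes. The 50 KRT8 pseudogenes in the files summed to 0.57% of the KRT8 FPKM after FoxO3 depletion and 0.57% after co-depletion, against 0.83% in the control, and the 67 KRT18 pseudogenes to 0.45% and 0.84%, against 0.82% of KRT18.

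The promoter table of RefSeq (GRCh38.p14, 250 bases before to 50 after a start) matched 2 of the 10 keratins, KRT5 and KRT8. That of KRT8, the highest keratin and higher in both depleted libraries, is shown because FoxO3 is a DNA-binding factor. It lies at chr12:52926420-52926719 on the minus strand, at a RefSeq start of KRT8, and other annotated starts of the gene lie elsewhere and were not searched. Whether the KRT8 RNA measured here began at this start was not tested. Capitals mark a match to the letters GTAAAC, searched on both strands, which is the core of the forkhead motif.
KRT8: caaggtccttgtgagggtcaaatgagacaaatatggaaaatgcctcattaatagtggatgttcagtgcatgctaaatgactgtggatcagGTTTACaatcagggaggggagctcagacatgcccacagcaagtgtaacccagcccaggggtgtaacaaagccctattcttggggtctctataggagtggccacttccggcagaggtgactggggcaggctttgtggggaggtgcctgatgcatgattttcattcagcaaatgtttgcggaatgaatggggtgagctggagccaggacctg
The first base of the match lies 160 bases before the start, on the opposite strand. GTAAAC occurs in 7.20% of 35116 promoters in the table, and its longer form GTAAACA in 3.42% of them and in neither keratin promoter. The letters TGANTCA, with any base at N, which is a loose form of the AP-1 motif, were in 7.71% and in neither. A match is a description of these letters and says nothing of binding.

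Genes that work with keratins were read from lists. Of 16 desmosome and plakin genes, 9 were analysed, with median log2 ratios of -0.13 after FoxO3 depletion and -0.04 after co-depletion, close to the -0.07 and -0.06 of all analysed genes. Of these 0 were higher and 1 of 9 lower in each depleted library, beside 16.7% and 12.3% of all analysed genes lower: PPL, the cross-linker periplakin, was at 12.0 FPKM after FoxO3 depletion and 12.7 after co-depletion, against 25.9 in the control. The plakophilins PKP2 and PKP4, which bind desmoplakin or cadherin tails, were at 63.7 and 74.2 FPKM after FoxO3 depletion and 58.6 and 69.6 after co-depletion, against 45.1 and 49.8 in the control, short of a call. After GC adjustment PKP2 passed the line in the FoxO3 depletion (log2 ratio 0.70). The linker plectin (PLEC) was at 420.7 FPKM after FoxO3 depletion and 406.5 after co-depletion, against 427.0 in the control.

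All 8 hemidesmosome genes were analysed, and 0 were higher and 4 lower in each depleted library, where 16.7% and 12.3% of all analysed genes were lower. Their median log2 ratio was -0.55 after FoxO3 depletion and -0.43 after co-depletion, or -0.41 and -0.35 after GC adjustment. That adjustment left 3 lower after FoxO3 depletion and 2 after co-depletion, beside 9.37% and 6.21% of all analysed genes: the integrin gene ITGA6 lost its call in both, and DST in the co-depletion. DST, the plakin that ties filaments to the plaque, was at 51.2 FPKM after FoxO3 depletion and 70.3 after co-depletion, against 120.4 in the control. COL17A1, the transmembrane collagen of the plaque, was at 9.26 and 11.2 FPKM, against 18.9, and the laminin chain LAMA3 at 14.7 and 16.6, against 28.2.

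Of 13 other intermediate filament genes, 7 were analysed, with median log2 ratios of -0.23 after FoxO3 depletion and -0.21 after co-depletion. Of the 7, 0 were higher in either, beside 4% and 4.02% of all analysed genes. After FoxO3 depletion 2 were lower and after co-depletion 1, beside 16.7% and 12.3% of all analysed genes. GFAP, the filament gene of astrocytes, was called lower after FoxO3 depletion, at 6.28 FPKM, with 7.84 after co-depletion and 10.6 in the control; the ratio of the co-depletion to the FoxO3 depletion was 1.25 (0.74 to 2.15), which includes no difference. NES, which encodes nestin, was called lower in both, at 5.03 FPKM after FoxO3 depletion and 5.12 after co-depletion, against 9.56 in the control. Of 9 genes of proteins known to bind the KRT8 or KRT18 protein, all were analysed and 0 called in either comparison with the control (median log2 ratios 0.23 and 0.18), beside the same shares of all analysed genes. The co-chaperone DNAJB6 was at 331.7 FPKM after FoxO3 depletion and 291.0 after co-depletion, against 241.7 in the control, and the kinase PRKCE at 37.9 and 35.7, against 25.3. Others lay below the control: FBF1 was at 1.07 and 0.90 FPKM, against 1.61, with ratios of 0.66 (0.39 to 1.10) and 0.56 (0.32 to 0.93). TRADD was at 11.3 and 9.87 FPKM, against 12.5, with ratios of 0.90 (0.72 to 1.13) and 0.79 (0.63 to 0.98).

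Of 16 transcription factors of epithelial genes, 9 were analysed and 0 called in either comparison with the control (median log2 ratios -0.02 and 0.13). Of all analysed genes 4% were higher and 16.7% lower after FoxO3 depletion, and 4.02% and 12.3% after co-depletion. KLF4 was at 41.4 FPKM after FoxO3 depletion and 44.7 after co-depletion, against 32.8 in the control, GATA3 at 12.1 and 12.6, against 8.78, and EHF at 62.8 and 78.8, against 94.0. SOX9 was lower too, at 33.4 and 34.2 FPKM, against 48.3, with ratios of 0.69 (0.65 to 0.74) and 0.71 (0.67 to 0.75). Among 5 repressors of epithelial genes 4 were analysed, with median log2 ratios of -0.49 and -0.34. In the FoxO3 depletion 2 of the 4 were lower and in the co-depletion 1, with 0 higher, beside the shares just given. ZEB1, which represses the E-cadherin gene, was called lower in both, at 11.5 FPKM after FoxO3 depletion and 11.2 after co-depletion, against 31.3 in the control, with GC-adjusted log2 values of -1.05 and -1.12. ZEB2 was called lower in the FoxO3 depletion, a call lost after GC adjustment (log2 ratio -0.54), at 5.25 FPKM, with 5.92 in the co-depletion and 8.86 in the control; in the co-depletion against the FoxO3 depletion it was not called (ratio 1.13, 0.86 to 1.49). In that comparison 0 genes of any of these lists were called in either direction, beside 1.35% of all analysed genes higher and 0.617% lower.

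**Figure D5:**
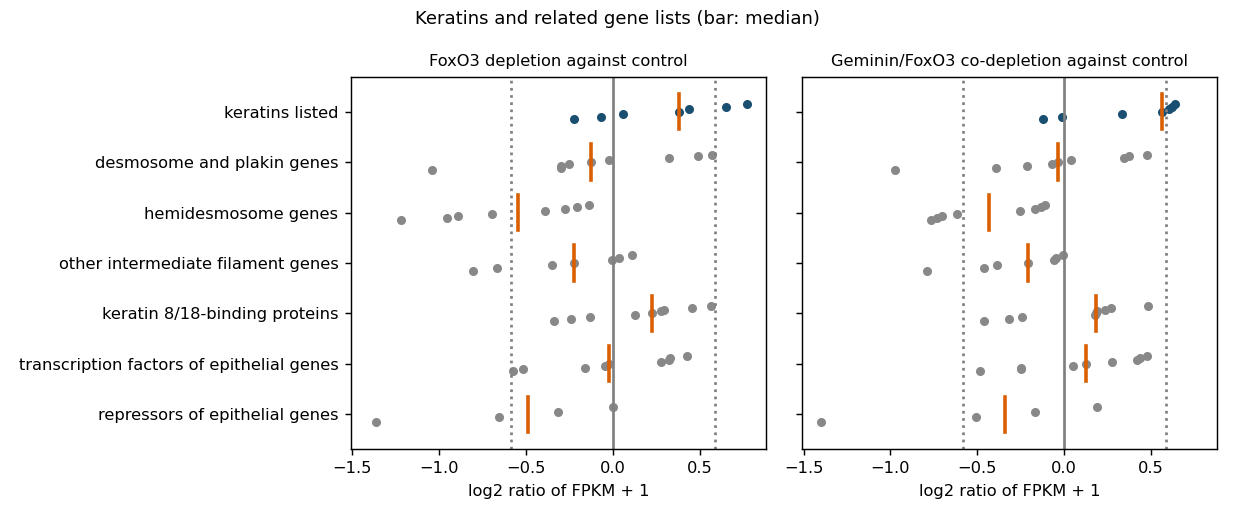
Log2 ratio of FPKM + 1 for each analysed gene of the keratins and of 6 related lists, FoxO3 depletion against control on the left and co-depletion against control on the right. Bars mark medians and dotted lines 1.5-fold. The keratin medians are 0.38 and 0.56, and those of the hemidesmosome genes -0.55 and -0.43.

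Markers of other cells were read for the same libraries. Of 5 fibroblast markers 2 were analysed and both were called higher in each depleted library, beside 4% and 4.02% of all analysed genes, COL1A1 at 25.3 FPKM after FoxO3 depletion and 24.3 after co-depletion, against 13.4 in the control, and PDGFRB at 15 and 14.4, against 6.24, while COL3A1, DCN and LUM were at 0.36 FPKM or less in each library. The list summed to 40.5 and 39.1 FPKM, against 20.0 in the control. Of 5 leukocyte markers 2 were analysed and 0 called (sums 67.4 and 65.5, against 73.4 FPKM), with CD3E at 0 in all libraries. Most of these sums came from LAPTM5, at 59.3 FPKM after FoxO3 depletion and 56.9 after co-depletion, against 66.5 in the control. CD14 went the other way, at 8.09 and 8.59 FPKM, against 6.76. Of all analysed genes 16.7% and 12.3% were called lower. Of 3 endothelial markers in the files 1 was analysed and 0 called, and they summed to 7.13 and 5.83, against 5.7 FPKM, and the 3 HEK293 markers to at most 0.02 FPKM. The part of such cells in the keratin values was not tested.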

How the data were processed

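The authors deposited 1 FPKM file per library, with 48162 Ensembl genes each. TopHat2 2.0.9 was used, per the submitters' processing notes. For the program that counted reads, the build, the gene models and strandedness, the sources used here give nothing. Groups were taken from the library titles read with the series' design text. Members and gene lists were chosen with earlier results of these data known.

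GENCODE 29 named 45341 genes; 297 without a name and with a mean of at least 1 FPKM were not used. Ratios are log2 of (FPKM + 1) between 2 libraries, which understates differences of low genes; 12649 named genes with a mean of at least 1 FPKM were analysed, and 1.5-fold was the rule for a call. GC content is the mean over a gene's transcripts, and its adjustment subtracts the median of 50 bins.

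Depth is hidden in FPKM. The commonest product of FPKM and length among single-transcript genes gave each library's total, and the smallest whole reads (up to 60000) with the deposited ratios, within the rounding of the values, were found for 99.98% of 20591 genes above 0 in at least 2 libraries and for 0% of 500 random triplets. True reads may be a multiple (by the implied lengths, 6 for KRT7, 3 for KRT19 and 2 for KRT81), so intervals can be too wide. Ratio intervals are exact Clopper-Pearson at 95%, from the smallest whole reads; those of quotients of genes use the normal approximation on the log scale. They cover counting error only, and reads without molecular identifiers are not independent molecules. The steps were tested on simulated data. Named genes were all 10 keratins, other keratins with a mean of at least 1 FPKM, FOXO3 and GMNN, and, per list and comparison, up to 3 analysed genes with the largest ratios, of which some are given. Named outside that rule, after their values were seen, were PLEC, ITGA6, KRT7-AS, TP63, CDH1, ESR1, CDH2, COL3A1, DCN, LUM and CD3E. The settings changed one at a time were the pseudocount (0.1 or 0.5), the minimum mean (5 FPKM or none), rescaling by the median ratio or to TPM, GC adjustment and a 2-fold rule. The rescaling to principal transcripts and the intervals with multiplied reads were chosen after seeing the data. Software was Python 3.11.15, numpy 2.4.6, pandas 2.3.3, scipy 1.17.1 and matplotlib 3.10.9.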

Additional observations from a re-analysis of the deposited data

How the results depend on the processing

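No paired analysis was possible because each group has 1 library. For the same reason no replicate could be left out. The 2 keratins called higher in the FoxO3 depletion kept their count under both pseudocounts, both other minimums, both rescalings and GC adjustment, and 0 were called at 2-fold. The 3 called higher in the co-depletion became 4 after rescaling by the median ratio, 0 after GC adjustment, 0 at 2-fold and 2 at principal transcript lengths, a setting chosen after seeing the data. The stricter threshold by itself removes calls, and the GC step subtracts 0.06 to 0.11 from these log2 ratios. The counts of 0 lower, and of 0 in either direction between the depleted libraries, were 0 under all 8 settings and at principal lengths. Of 105 values of single keratin ratios under 5 of the settings, 96 lay within the counting interval of the value given and 0 called ratios changed sign, the called ones ranging from 0.49 to 0.85 on the log2 scale. Most of the 9 outside were of KRT8. It left its interval in both comparisons with the control under both rescalings and GC adjustment. Its log2 ratio under these settings ranged from 0.59 to 0.73 in the FoxO3 depletion and from 0.50 to 0.62 in the co-depletion. The log2 ratio of KRT19 in the FoxO3 depletion ranged from -0.13 to 0.01. Depth limits KRT5, KRT14 and KRT17, with 7 reads or fewer per library.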

Other observations

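Of 55 keratin genes named in the files, 20 were at 0 in all 3 libraries. Beside the keratins above, KRT10 and KRT15 had a mean of at least 1 FPKM. KRT10, the type I keratin of differentiating epidermis, was at 31.5 FPKM after FoxO3 depletion and 30.3 after co-depletion, against 27.3 in the control, with ratios of 1.16 (1.05 to 1.28) and 1.11 (1.01 to 1.23). KRT15, a type I keratin of basal cells, was at 3.03 and 2.94 FPKM, against 3.7 in the control, with ratios of 0.82 (0.60 to 1.12) and 0.80 (0.58 to 1.08). The highest of the remaining keratins in any library was at 0.42 FPKM. The 10 keratins described above made up 98.5% of all keratin FPKM after FoxO3 depletion and 98.6% after co-depletion, against 98.3% in the control.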
